A study of Mus musculus with 7 samples.

Results

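The cells described here are mesenchymal neural crest cells (NCCs) of the mouse pharyngeal arches at E10.5 that carried Emx2 RNA. They were chosen in the 2 control and 2 Tbx1 null libraries of that day by droplet single-cell RNA sequencing. A member had at least 1000 detected genes, at most 10% of its unique molecular identifiers (UMIs) from mitochondrial genes, at least 1 UMI of Emx2, at least 2 UMIs of Twist1, Prrx1 and Prrx2 together, and 0 UMIs of Sox10 and Foxf1. The rule found 2544 Emx2 cells among 33369 kept cells at E10.5 and 58432 kept cells in the 7 libraries of the series. Of these, 719 and 1795 came from control replicates 1 and 2, and 16 and 14 came from null replicates 1 and 2.

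The strain label reads Swiss-Webster, which the study's methods describe as a mixed background, and each library was made from pooled embryos. Controls carried Wnt1-Cre/+ and ROSA-EGFPf/+, and cells were sorted as EGFP-positive and DAPI-negative. The null libraries share both alleles. Their titles read Tbx1null while their genotype label reads Tbx1+/-, and they are called null here by their title. The study's sample list also describes them as homozygous null. The control tissue was the second to the sixth arches with the heart, and the null tissue was the region below the first arches with the heart. By the study's sample list the neural tube was part of the dissection in both genotypes. Null replicate 1 was made with kit version 3 and the other E10.5 libraries with version 3.1, which cannot be told apart from the replicate. Wnt1-Cre labels the neural crest lineage and also dorsal neural cells, so the sort does not hold NCCs alone. Tbx1 itself, a gene of the pharyngeal endoderm and mesoderm, was read at 6.02 and 5.05 CPM (UMI counts scaled to a total of 1000000 per summed group) in the other control mesenchyme and 4.56 and 2.77 CPM in the other null mesenchyme, levels too low to check the labels.

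Arch mesenchyme is patterned by nested homeobox genes. Dlx1 and Dlx2 span the arch from the proximal to the distal pole, Dlx5 and Dlx6 mark its ventral part, and Dlx3 and Dlx4 lie nearest the distal tip. Endothelin and BMP signals from the epithelium turn on Hand2 in the most ventral mesenchyme, Pou3f3 marks the proximal part, and Hox genes give each arch its place along the body axis. Emx2 encodes a homeobox factor best known for its role in the forebrain and the urogenital tract, and it is also needed for bones of the shoulder girdle and the middle ear. Smoc1 encodes a secreted protein that binds BMP signals.

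Emx2 lies at chr19:59458372-59465357 on the plus strand of mm10. The 300 bases around its start in RefSeq are shown because Emx2 chose the cells. Those of the long noncoding RNA gene 3110099E03Rik are shown because its RNA marked them. It was also called between genotypes in the mesenchyme with 0 UMIs of Emx2. The windows, on GRCm38.p6, are chr19:59458440-59458739 on the plus strand and chr2:115512152-115512451 on the minus strand. Each lies inside its gene as GENCODE annotates it, that of 3110099E03Rik within chr2:115493513-115527744, because the RefSeq starts lie downstream of the annotated 5′ ends. Capitals mark TAATTA, a palindromic core that many homeobox proteins bind, which reads the same on both strands. It is present in 1738 of 32851 RefSeq promoters of the same length, or 5.29%.
Emx2 promoter: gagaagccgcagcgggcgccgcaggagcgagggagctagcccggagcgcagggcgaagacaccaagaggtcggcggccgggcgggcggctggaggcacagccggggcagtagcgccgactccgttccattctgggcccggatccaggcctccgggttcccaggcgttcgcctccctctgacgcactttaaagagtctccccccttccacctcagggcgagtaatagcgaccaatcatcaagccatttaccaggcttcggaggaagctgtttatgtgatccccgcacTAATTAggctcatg
3110099E03Rik promoter: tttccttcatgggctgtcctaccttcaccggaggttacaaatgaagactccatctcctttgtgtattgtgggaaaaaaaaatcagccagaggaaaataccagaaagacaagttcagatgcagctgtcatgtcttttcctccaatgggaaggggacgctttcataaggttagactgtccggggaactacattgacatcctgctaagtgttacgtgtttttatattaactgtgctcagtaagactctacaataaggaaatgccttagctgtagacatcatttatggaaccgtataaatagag
The Emx2 window held 1 match and that of 3110099E03Rik held 0. Among the genes named below as most changed in the Emx2 cells, 9 of the higher set had 12 RefSeq promoters, of which 2 held it (both of Dlx6os1), and 9 of the lower set had 14, of which 2 held it (Hand2 and Igf2). A match describes the letters only.

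In the controls Emx2 cells were a sizeable share of arch mesenchyme, and in the null libraries they were rare. Of all cells with at least 2 UMIs of Twist1, Prrx1 and Prrx2 together, Emx2 cells were 19.1% in control replicate 1 (95% Clopper-Pearson interval 17.9% to 20.4%) and 23.5% in control replicate 2 (22.6% to 24.5%). The share was 0.440% in null replicate 1 (0.252% to 0.713%) and 0.560% in null replicate 2 (0.306% to 0.938%). Intervals cover counting error only. The groups did not overlap, and since the rule was set with this difference known, the shares are a description with no test. Among cells of all kinds that passed the quality limits, the shares were 9.78% and 17.5% in the controls and 0.181% and 0.202% in the null libraries.

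**Figure D1:**
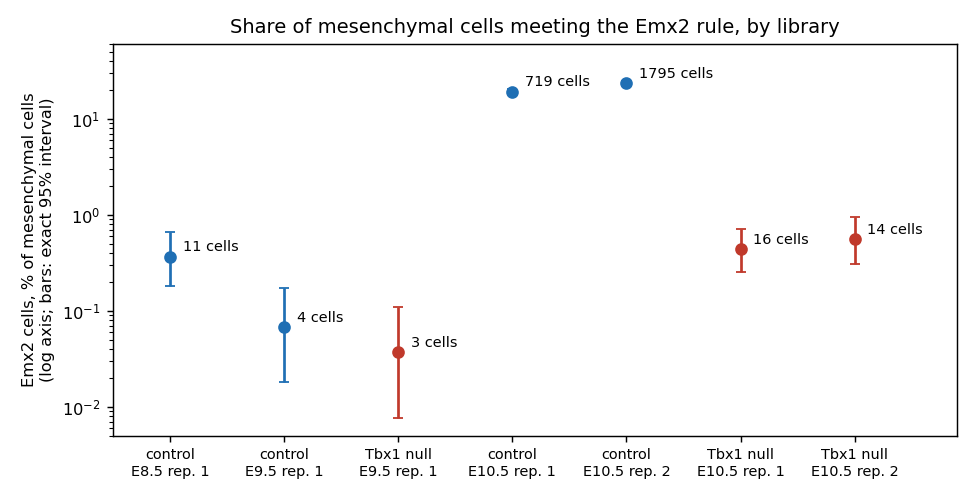
Share of mesenchymal cells (vertical axis, percent, log scale) that met the rule in each library, with 95% Clopper-Pearson intervals. The controls at E10.5 stand at 19.1% and 23.5%, and every other library stands below 1%.

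The makeup of the mesenchyme also differed between genotypes. Cells with a UMI of Dlx5 or Dlx6 and under 2 UMIs of Hoxa3, Hoxb3 and Hoxd3 together were 40.9% and 42.6% of mesenchymal cells without Sox10 and Foxf1 in the controls, and 13.0% and 3.31% in the null libraries. Within these cells Emx2 cells were 539 of 1258 (42.8%, 40.1% to 45.6%) and 1207 of 2762 (43.7%, 41.8% to 45.6%) in the controls. In the null libraries they were 2 of 346 (0.578%, 0.0701% to 2.07%) and 0 of 57, which allows a share of up to 6.27%. Emx2 cells were thus also rare within the matched cells of null replicate 1, while 57 cells limit the statement for null replicate 2. This denominator was chosen after seeing the data.

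The cutoff at 1 UMI lies within a continuous distribution. Of the control Emx2 cells, 28.5% and 31.1% had exactly 1 UMI of Emx2, and 50.6% and 49.9% had 3 or more, with a maximum of 24 and 22. Of the null members, 75.0% and 64.3% had 1 UMI, with a maximum of 3 in each library. Cells of neural character (at least 2 UMIs of Sox2, and no mesenchyme) had an Emx2 UMI in 0.210% and 0.372% of cells in the controls and 0.0384% and 0.0541% in the null libraries, at median depths of 16175, 11254, 16785.5 and 15906 UMIs. The control shares lie far above that background. The null shares of 0.440% and 0.560% lie nearer to it but still above it. That background rests on 1 cell in each null library, with Clopper-Pearson intervals of 0.000972% to 0.214% and 0.00137% to 0.301%. These do not overlap the intervals of the null shares given above. Null members had a median depth of 29862.5 and 30188.5 UMIs, and the other null mesenchyme 23851 and 20905 UMIs. The part of background in the null shares was not tested.

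Control cells with exactly 1 Emx2 UMI already differed from those with none. The cells with none are all the remaining mesenchyme that met the other limits, not only cells near the cutoff. Cells with 1 Emx2 UMI had 25.3 and 28.2 CPM of Smoc1, and cells with none had 4.22 and 4.85 CPM. For Hand2 the values were 15.99 and 20.3 CPM with 1 UMI and 97.6 and 127 CPM with none. The limit on Twist1, Prrx1 and Prrx2 left out 33 and 81 Emx2-positive cells. Without Sox10 and Foxf1, 25 and 72 members stood at a sum of 2, and 17 and 54 of the cells left out at a sum of 1 and 12 and 22 at a sum of 0. Dlx5 was at 179.9 and 146 CPM at a sum of 2, 177 and 217 CPM at 1 and 5.42 and 160.3 CPM at 0. Smoc1 and 3110099E03Rik had 0 UMIs in the 12 cells of replicate 1 with a sum of 0, and stood at 96.9 and 63.4 CPM in the 22 cells of replicate 2. Sox10 or Foxf1 left out 38 and 73 further Emx2-positive cells.

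Control members were deeper than the other control mesenchyme, with medians of 26976 and 18867 UMIs against 22009 and 16130.5, and 5089 and 4349 genes against 4710 and 4007. A rule that asks for a UMI favours deep cells, so levels are given as CPM over the summed cells of a library, and shares of cells also after thinning each cell to 5000 UMIs. The highest doublet scores fell on 9.18% and 12.6% of control members and 11.1% and 11.1% of the other mesenchyme. In the null libraries they fell on 12.5% and 21.4% of the members (2 of 16 and 3 of 14) and 9.51% and 7.54% of the other mesenchyme. Pairs of E10.5 libraries shared 12 to 26 barcodes among kept cells, at most 0.354% of the smaller library, and 0 members.

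Of the label's 5 marker genes, Emx2 is in the rule, 3 were higher in the Emx2 cells than in the other control mesenchyme, and Hmx1 was not. The other mesenchyme is the 2357 and 4692 control cells that met the same limits with 0 UMIs of Emx2. Smoc1 (chr12:81026808-81186414) stood at 44.1 and 46.0 CPM in the Emx2 cells of replicates 1 and 2 and at 4.22 and 4.85 CPM in the other mesenchyme (log2 fold change 3.35, SE 0.08, adjusted p = 2.97e-16). 3110099E03Rik stood at 106 and 107 against 20.5 and 27.2 CPM (log2 fold change 2.20, SE 0.08, adjusted p = 7.47e-14). For Dlx5 (chr6:6877805-6882085) the levels were 146 and 112 against 50.2 and 41.8 CPM (log2 fold change 1.53, SE 0.06, adjusted p = 1.88e-13). None of the 3 overlapped between groups, as was true of 11.5% of all genes tested in this direction. Hmx1 (chr5:35389108-35399730), a homeobox gene of craniofacial mesenchyme and sensory ganglia, was at 141 and 109 against 138 and 106 CPM (log2 fold change 0.07, SE 0.05, adjusted p = 0.368), and its groups overlapped. With at least 2 Emx2 UMIs required, Hmx1 was lower (log2 fold change -0.22, adjusted p = 0.0135), while it was higher against all other mesenchymal cells (0.39, adjusted p = 4.58e-12) and without likely doublets (0.16, adjusted p = 0.0181), so its direction was not settled. Emx2 itself was at 131 and 171 CPM in the members and at 0 outside by the rule.

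The word distal in the label did not hold for every marker. Of 5 distal markers Dlx3, Dlx4, Dlx5 and Dlx6 were higher in the Emx2 cells and Hand2, the gene that defines the distal and ventral tip, was lower. Of 4 proximal markers Pou3f3 and Meis2 were higher and Jag1 and Six2 were lower. The cells are therefore called Emx2 cells in what follows.

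Across all genes, 2848 of 14792 tested (19.3%) passed an adjusted p of 0.05 between Emx2 cells and other mesenchyme in the controls, 1124 higher (7.6%) and 1724 lower (11.7%). Counts were summed per library and tested with edgeR's quasi-likelihood test with the library as a block, which leaves 1 residual degree of freedom, and p-values are Benjamini-Hochberg adjusted over all genes tested. Without the library block 122 genes passed, DESeq2 with the block called 1062, and 927 passed after thinning. Smoc1, 3110099E03Rik, Dlx5, Dlx6, Pou3f3, Hand2, Gsc and Id1 passed without the block too, with adjusted p from 0.00880 (Smoc1) to 0.0433 (Dlx6), while Dlx3, Hoxa2 and Sox9 did not. Calls lost without the block are named in each paragraph. With the block, the p-values set the difference between the cell groups against a spread that edgeR estimates largely from all genes together. They do not measure how alike the difference of a single gene was in these 2 libraries. The spread of levels between the libraries is left out of them.

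**Figure D2:**
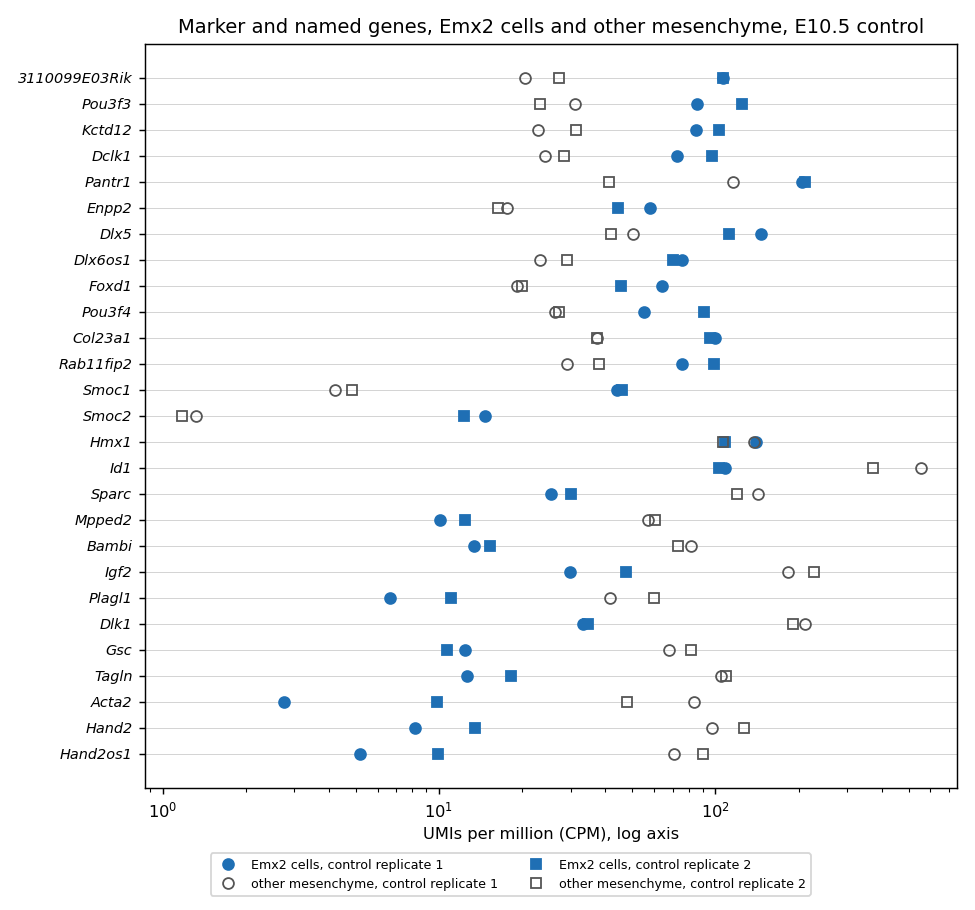
Level (horizontal axis, CPM, log scale) of the marker genes and of the genes named by rule in Emx2 cells and other mesenchyme of the control E10.5 libraries, with a point for each library. Hand2 stands at 8.18 and 13.5 CPM in the Emx2 cells against 97.6 and 127 CPM, and Smoc1 at 44.1 and 46.0 against 4.22 and 4.85 CPM.

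The Dlx genes, with the antisense RNAs of their clusters, were higher in the Emx2 cells in 8 of 8, beside 7.6% of all genes tested. Their median log2 fold change was 1.17, beside 0.02 over all genes tested. Dlx5 and Dlx6 encode paired factors of the ventral arch. Dlx6 stood at 65.5 and 52.7 CPM against 25.6 and 25.1 CPM (log2 fold change 1.25, SE 0.07, adjusted p = 9.88e-11). Dlx3 and Dlx4, the distal pair, stood at 44.0 and 38.5 against 17.6 and 21.0 CPM (1.13 on the log2 scale) and at 15.4 and 11.7 against 7.71 and 7.74 CPM (0.83). The proximal and distal pair Dlx1 and Dlx2 differed by 1.19 and 0.84. The antisense RNAs Dlx6os1 and Dlx1as differed by 1.52 and 1.15, but they overlap Dlx6 and Dlx1 and cannot be told apart from them without strand. The calls of Dlx4 and Dlx1as were lost after thinning and that of Dlx1as also with DESeq2. Without the library block Dlx5, Dlx6 and Dlx6os1 still passed, and the other 5 did not (adjusted p from 0.0595 for Dlx1 to 0.192 for Dlx1as).

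Genes of the ventral tip and the midline were lower. Hand2, a basic helix-loop-helix factor that works downstream of endothelin, stood at 8.18 and 13.5 CPM in the Emx2 cells and 97.6 and 127 CPM in the other mesenchyme (log2 fold change -3.32, SE 0.07, adjusted p = 1.11e-16). Its antisense neighbour Hand2os1 differed by -3.35 and may share its reads. Hand1, its paralog, was at 0.739 and 3.31 against 22.6 and 30.4 CPM (-3.57). Gsc, a homeobox gene of the ventral arch, was at 12.4 and 10.7 against 67.9 and 81.7 CPM (log2 fold change -2.68, SE 0.09, adjusted p = 3.33e-14). Msx1 and Msx2, homeobox genes that follow BMP signals, differed by -1.30 and -3.11, and Alx1, of the frontonasal mesenchyme, by -2.47. Hand2, Hand1, Gsc, Msx1, Msx2 and Alx1 did not overlap between groups, as was true of 23.5% of all genes tested in this direction. The calls of Hand1, Msx1 and Alx1 were lost without the library block. Of the dorsoventral list as a whole, 8 of 27 tested genes were higher and 14 lower, with a median of -0.82. Of the wider homeobox list, without the Dlx and Hox genes, 6 of 42 were higher and 20 lower, with a median of -0.58. Over all genes tested 7.6% were higher and 11.7% lower.

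Genes of the proximal and dorsal arch split. Pou3f3, a POU factor of the dorsal arch, stood at 86.1 and 125 CPM in the Emx2 cells against 31.2 and 23.2 CPM (log2 fold change 2.02, SE 0.12, adjusted p = 1.74e-10). Its X-linked relative Pou3f4 was at 55.1 and 90.8 against 26.3 and 27.1 CPM (1.48), and Pantr1, a noncoding RNA gene beside Pou3f3, at 206 and 211 against 116 and 41.1 CPM (1.64). For Pantr1 the other mesenchyme differed between replicates by more than the Emx2 cells did, and its call was lost with DESeq2. Meis2, a cofactor of Hox proteins, was higher (0.42), as was the nuclear receptor gene Nr2f1 (0.52). Six2, by contrast, was at 2.66 and 3.58 against 9.85 and 8.45 CPM (-1.46), and Jag1, a Notch ligand of the dorsal arch, was also lower (-0.84). Pou3f4, Pantr1, Meis2, Nr2f1, Six2 and Jag1 did not pass without the library block. Pou3f3 and Dlx5 were thus both higher in the summed Emx2 cells, though not always in the same cells. After thinning to 5000 UMIs Pou3f3 was found in 23.4% and 35.8% of members with a Dlx5 UMI and 35.2% and 43.8% of those without one.

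Other homeobox genes moved in both directions. Lhx8 (1.09), Gbx2 (1.69) and the zinc finger homeobox genes Zfhx4 (0.50) and Zfhx3 (0.27) were higher. Isl1 (-2.66) and Tshz1 (-1.41) were lower. Of these only Tshz1 passed without the library block. Barx1, a homeobox gene of tooth and arch mesenchyme, stood at 204 and 145 against 174 and 148 CPM and did not pass (log2 fold change 0.14, SE 0.06, adjusted p = 0.126). It was lower once at least 2 Emx2 UMIs were required (log2 fold change -0.24, adjusted p = 9.89e-04) or cells were thinned before selection (-0.52, adjusted p = 6.02e-07).

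The dorsoventral list holds genes of the endothelin pathway. The receptor gene Ednra was at 17.9 and 19.9 CPM in the Emx2 cells and 12.8 and 16.7 CPM in the other mesenchyme (log2 fold change 0.40, SE 0.08, adjusted p = 0.00191), a call lost with DESeq2 and after thinning. Ednrb (-1.40), the ligand gene Edn1 (-3.77) and the downstream factor gene Mef2c (-1.17) were lower. Of these 4 genes Edn1 alone passed without the library block, and the call of Ednrb was also lost after thinning.

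Of the Hox genes, Hoxa2 was higher in the Emx2 cells and the rest were lower. Hoxa2, which gives the second arch its identity, stood at 108 and 104 against 76.9 and 66.6 CPM (log2 fold change 0.62, SE 0.05, adjusted p = 4.00e-08). The other 14 of 15 Hox genes tested were lower, and the list's median was -1.65, beside 7.6% higher and 11.7% lower over all genes. Without the library block none of the 7 Hox genes named here passed (adjusted p from 0.0511 for Hoxb3 to 0.918 for Hoxb2). Hoxb2 was at 54.7 and 47.7 against 88.7 and 48.3 CPM, with its groups overlapping (-0.30), and the call was lost with DESeq2 and after thinning. Of the genes that mark the third and later arches, Hoxb3 was at 13.3 and 13.2 against 42.8 and 30.8 CPM (-1.39), Hoxa3 differed by -1.45 and Hoxd3 by -1.36. Hoxb4 differed by -1.46, and Hoxd4 was at 13.8 and 11.2 against 63.4 and 31.4 CPM (-1.78). The caudal marker sum (Hoxa3, Hoxb3 and Hoxd3) was 27.3 and 26.2 CPM in the Emx2 cells and 90.5 and 61.0 CPM in the other mesenchyme. Cells with at least 2 UMIs of these Hox genes together made up 92 (12.8%) and 187 (10.4%) of the Emx2 cells. Those with a UMI of Dlx5 or Dlx6 made up 596 (82.9%) and 1295 (72.1%).

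Shares of single cells gave the same order after thinning to 5000 UMIs, where 701 and 1783 control members were deep enough and 18 and 12 were left out. Dlx5 was found in 48.1% and 38.1% of the Emx2 cells, 16.7% and 14.3% of the other mesenchyme and 0.378% and 0.256% of the neural cells. Hand2 was found in 2.28% and 3.42%, 27.1% and 33.7% and 0.595% and 1.54% in the same order. 3110099E03Rik was found in 26.8% and 26.5%, 6.20% and 7.11% and 0.270% and 0.256%. For Smoc1 the shares were 19.0% and 20.9%, 2.11% and 2.01% and 6.59% and 2.43%, where the neural share was not below that of the other mesenchyme, so it sets no level for free RNA. Hoxa2 was found in 39.9% and 37.1%, 28.4% and 25.05% and 36.9% and 28.6%, where the last pair is no background because hindbrain cells express Hoxa2 themselves. Without thinning the Emx2 cells had 79.3% and 67.5% for Dlx5, 58.1% and 49.9% for Smoc1 and 83.0% and 77.3% for Hoxa2.

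BMP pathway genes were mostly lower in the Emx2 cells, 15 of 23 tested, with 5 higher and a median log2 fold change of -1.24. Over all genes tested 11.7% were lower and 7.6% higher. The immediate targets Id1 and Id3, inhibitors of helix-loop-helix factors, were among the lower genes. Id1 was at 108 and 103 CPM against 553 and 372 CPM (log2 fold change -2.05, SE 0.08, adjusted p = 1.19e-13), and Id3 at 295 and 243 against 1043 and 584 CPM (-1.49). Id2 differed by -1.24, the inhibitory Smad genes Smad6 and Smad7 by -1.31 and -0.91, and Smad9 by -2.73. Bambi, a pseudoreceptor gene switched on by BMP, was at 13.4 and 15.3 against 81.7 and 73.4 CPM (-2.37), and the Wnt antagonist gene Dkk1 at 3.89 and 4.86 against 40.3 and 34.8 CPM (-3.01). These targets did not overlap between groups, beside the 23.5% of all genes given above. The calls of Id3, Smad6, Smad7 and Smad9 were lost without the library block, that of Smad9 also after thinning.

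The ligand genes Bmp4 (5.72 and 8.58 against 29.3 and 37.9 CPM, -2.19) and Bmp2 (-2.37) were lower, and so were the secreted inhibitor genes Nog (-2.45), Grem1 (-1.60) and Fst (-1.62). The 5 higher genes were the receptor genes Bmpr1b (30.1 and 30.6 against 11.8 and 12.1 CPM, 1.39) and Bmpr1a (0.17), Chrdl1, a secreted inhibitor gene (1.37, lost with DESeq2), Smoc1, and its paralog Smoc2. Smoc2 stood at 14.7 and 12.3 CPM against 1.32 and 1.18 CPM (log2 fold change 3.47, SE 0.14, adjusted p = 6.10e-13). Smoc1 and Smoc2 thus went one way and the inhibitor genes Nog and Grem1 the other. Without the library block the calls of Nog, Grem1, Fst, Bmpr1a and Chrdl1 were lost. Those of Nog, Grem1, Fst and Bmpr1a were also lost after thinning, and those of Grem1 and Bmpr1a with DESeq2.

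In the FGF list 4 of 14 tested genes were higher and 2 lower, with a median of 0.10, beside 7.6% higher and 11.7% lower over all genes. The feedback genes Dusp6, a phosphatase of ERK, and Il17rd, a membrane inhibitor of FGF signalling, were at 49.6 and 57.4 against 24.9 and 26.8 CPM (1.10) and 52.8 and 59.7 against 29.2 and 32.9 CPM (0.90). The receptor gene Fgfr1 (0.33) and the target Etv1 (0.46, lost with DESeq2 and after thinning) were also higher. Fgfr2 (-1.10) and Fgfr3 (-1.84) were lower. Of these genes Dusp6 and Fgfr2 passed without the library block and the other 4 did not.

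Wnt, hedgehog and retinoic acid genes changed in part. Over all genes tested 7.6% were higher and 11.7% lower. In the Wnt list 3 of 21 genes were higher and 8 lower, with a median of -0.27. Frzb, a secreted Wnt antagonist gene of cartilage precursors, was at 43.4 and 32.9 against 19.2 and 17.4 CPM (1.09), Fzd2 and Ror2 were the other higher genes (0.23 and 0.29), and Wnt5a (-0.47) and Notum (-1.94) were lower. In the hedgehog list 4 of 14 were higher and 5 lower, with a median of 0.12. Foxd1, a forkhead gene of facial mesenchyme, was at 63.9 and 45.5 against 19.2 and 20.02 CPM (1.49), the co-receptor gene Gas1 at 267 and 275 against 222 and 204 CPM (0.40), and Osr2, a palate gene, differed by 1.67. Among retinoic acid genes 3 of 13 were higher and 5 lower, with a median of 0.06. Cyp26b1, which encodes an enzyme that degrades retinoic acid, was at 9.41 and 10.2 against 4.57 and 2.35 CPM (1.64), while the synthesis gene Aldh1a2 (-1.93) and the receptor gene Rarb (-1.61) were lower. None of the 11 genes named from these 3 lists passed without the library block. The calls of Fzd2, Ror2 and Osr2 were also lost after thinning, and that of Ror2 with DESeq2.

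Genes of cartilage precursors were higher in part. Sox9, the master factor of cartilage, stood at 133 and 171 CPM against 66.7 and 79.4 CPM (log2 fold change 1.10, SE 0.05, adjusted p = 7.12e-12). Its target Col2a1 was at 147 and 127 against 82.2 and 78.0 CPM (0.81), and Sox6 differed by 0.83, a call lost with DESeq2 and after thinning. Another cartilage collagen gene, Col9a1, went the other way, at 96.8 and 94.5 against 166 and 194 CPM (-0.87). Pax9 (-1.05) and Snai1 (-0.98) were lower too. None of these 6 genes passed without the library block. Of the 11 skeletal genes tested 4 were higher and 3 lower, with a median of 0.00, beside 7.6% higher and 11.7% lower over all genes.

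Matrix genes were lower in 10 of 24 and higher in 3, with a median of -0.20, beside 11.7% lower and 7.6% higher over all genes. Sparc, a collagen-binding matrix protein gene, was at 25.5 and 30.2 against 142 and 119.8 CPM (-2.17). Postn (-2.27), Tnc (-2.47) and Col1a1 (-1.09) were lower, and Col3a1 (0.29) was higher. Guidance genes were lower in 15 of 25 and higher in 4, with a median of -0.54. The higher genes were Ntn1 (1.35, lost with DESeq2 and after thinning), which encodes a secreted guidance cue, and the ephrin pathway genes Efnb2 (0.65), Efna5 (0.49) and Ephb2 (0.35). Sema3c, a semaphorin gene of the outflow tract, was lower (-2.32), as was Epha3 (-1.46). Without the library block the calls of Tnc, Col1a1, Col3a1, Ntn1, Efnb2, Efna5 and Ephb2 were lost. Those of Tnc and Ephb2 were also lost after thinning, and that of Ephb2 with DESeq2.

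Some of the cell cycle genes were a little higher than in the other mesenchyme. Over all genes tested 7.6% were higher and 11.7% lower. Of 20 S phase genes 10 were higher and 0 lower (median 0.15), and of 20 G2/M genes 10 were higher and 0 lower (median 0.16). Top2a was at 473 and 606 against 426 and 537 CPM (0.21), and Mki67 did not pass (0.10, adjusted p = 0.197). Of 13 inhibitors of the cell cycle 5 were lower and 1 higher, with a median of -0.18. Cdkn1c, which encodes a kinase inhibitor of growth arrest, was at 298 and 299 against 508 and 470.0 CPM (-0.66). The calls of Top2a and Cdkn1c were lost without the library block.

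Among the genes named for the size of their change, several belong to none of these lists. Higher were Kctd12, a receptor-associated protein gene (84.8 and 103 against 22.8 and 31.2 CPM, 1.85), and Dclk1, a microtubule kinase gene (72.7 and 96.9 against 24.3 and 28.4 CPM, 1.73). Enpp2 encodes the enzyme autotaxin and was at 58.2 and 44.6 against 17.7 and 16.3 CPM (1.63). The collagen gene Col23a1 (1.43) and the vesicle traffic gene Rab11fip2 (1.43) were higher too. The lower genes included Dlk1, a Notch-related gene (33.1 and 34.7 against 211 and 190.5 CPM, -2.51), the growth factor gene Igf2 (29.8 and 47.4 against 183 and 227 CPM, -2.38) and Plagl1 (6.65 and 11.05 against 41.6 and 60.01 CPM, -2.48). These 3 lower genes are all imprinted. Mpped2 was also lower (-2.33). Of the genes of this paragraph Rab11fip2 and Plagl1 lost their call without the library block.

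The smooth muscle genes Acta2 and Tagln were also among the most lowered. Acta2 was at 2.76 and 9.85 against 83.8 and 47.9 CPM (-3.10) and Tagln at 12.6 and 18.2 against 104.7 and 109 CPM (-2.73), and the call of Acta2 was lost without the library block. Over the 4 smooth muscle markers the sum was 15.9 and 28.9 CPM in the Emx2 cells and 194 and 162 CPM in the other mesenchyme. Over the 4 outflow tract markers it was 2.96 and 9.25 against 53.3 and 68.8 CPM. The sum of 6 neural markers was 144 and 76.5 CPM in the Emx2 cells and 293 and 102 CPM in the other mesenchyme, so neural RNA was lower in the Emx2 cells of both replicates. Markers of endothelium, blood, cardiac muscle and pharyngeal mesoderm each summed to at most 3.25 CPM in the control Emx2 cells. Mesenchyme markers, of which 3 are in the rule, summed to 768 and 818 against 1122 and 1273 CPM. The rule genes were at 359 and 336 against 407 and 406 CPM for Twist1, 203 and 272 against 381 and 525 CPM for Prrx1 and 124 and 114 against 255 and 235 CPM for Prrx2. The part of these other RNAs in the results above was not tested.

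The Emx2 cells differed among themselves with the amount of Emx2. After thinning to 5000 UMIs, members fell into 4 steps with 0, 1, 2 and 3 or more UMIs of Emx2, which held 385, 209, 72 and 35 cells in replicate 1 and 769, 596, 246 and 172 in replicate 2. These steps are a description, since cells of a library are not replicates. Emx2 RNA also chose the members, so the steps divide the cells by the gene that selected them. In replicate 1 the median depth before thinning was 28361 UMIs in the step with 0 and 25991, 25509 and 25789 in the others. In replicate 2 it was 19793 against 18375, 18506.5 and 18215.5. Deep cells that only just met the rule can fall in the step with 0. Their part in the course of any gene over the steps was not tested. Smoc1 was at 38.3, 49.0, 50.6 and 76.0 CPM over the steps in replicate 1 and at 34.3, 45.5, 64.3 and 81.9 CPM in replicate 2. Pou3f3 was at 68.0, 91.0, 119.9 and 218 CPM and at 94.7, 131, 165 and 205 CPM, and Sox9 at 117, 138, 176 and 229 CPM and at 147, 177, 199 and 233 CPM. Dlx5 was at 134, 151, 184 and 184 CPM and at 91.6, 117, 138 and 163 CPM. Smoc1, Pou3f3 and Sox9 were thus highest in the top step in both replicates, and Dlx5 was level over the last 2 steps of replicate 1.

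Hmx1 and Barx1 ran the other way. Hmx1 was at 160.4, 144, 54.9 and 44.0 CPM over the steps in replicate 1 and at 149, 99.8, 37.1 and 40.7 CPM in replicate 2. Barx1 was at 259, 138, 132 and 61.7 CPM and at 190.0, 126, 99.1 and 51.7 CPM, and the BMP target Id1 at 139, 70.7, 60.8 and 44.0 CPM and at 127, 102, 65.7 and 37.6 CPM. Hoxb3 declined as well, at 15.8, 11.7, 8.605 and 1.10 CPM and 19.3, 9.76, 7.10 and 2.14 CPM. So the summed level of Hmx1 in the Emx2 cells, close to that of the other mesenchyme, covered a high level at low Emx2 and a low level at high Emx2. 3110099E03Rik followed neither course, at 108, 115, 96.3 and 59.5 CPM and at 101, 115, 116 and 90.8 CPM.

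**Figure D3:**
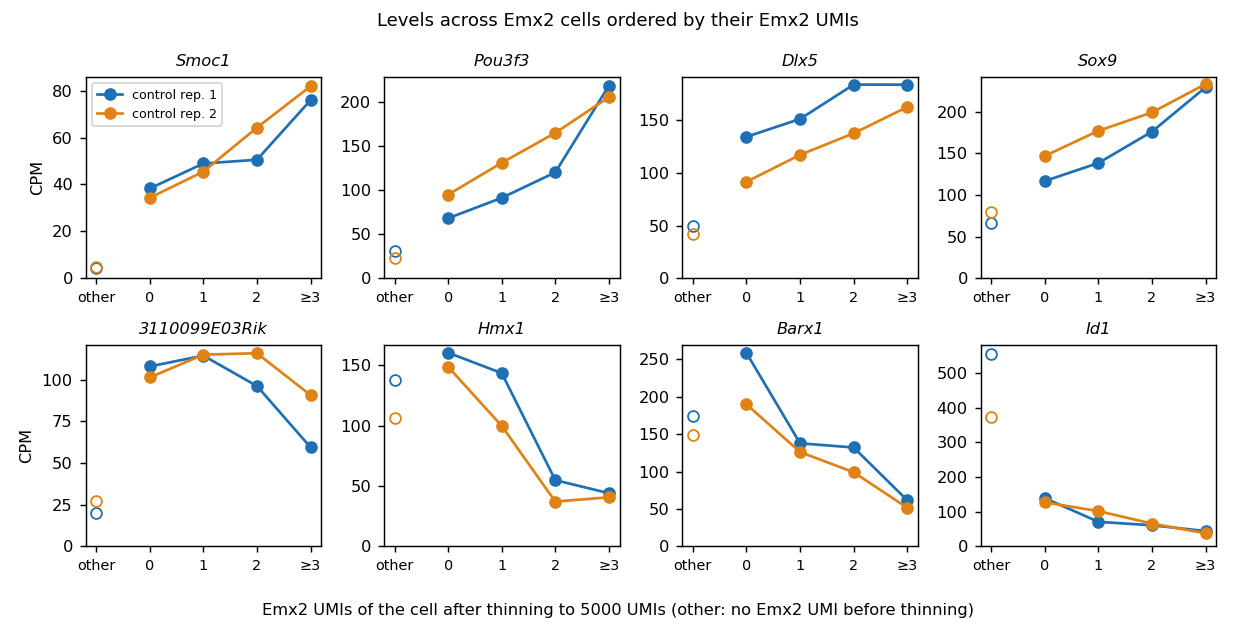
Level (vertical axis, CPM, linear scale from 0) of selected genes in control E10.5 mesenchyme by the Emx2 UMIs of a cell after thinning to 5000 UMIs (horizontal axis), with a line for each replicate. Among members Smoc1, Pou3f3 and Sox9 climb with Emx2 in both replicates, and Barx1 and Id1 decline. Hmx1 declines too, apart from the last step of replicate 2.

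Pairs of genes within the thinned control members are given as a description, again with no test. Barx1 was found in 13.5% and 13.1% of the members with a Pou3f3 UMI and 40.1% and 32.6% of those without one. 3110099E03Rik was found in 15.9% and 16.5% of members with Pou3f3 and 31.4% and 33.3% of those without it. With a Dlx5 UMI 3110099E03Rik was found in 32.3% and 35.3% of members, and without one in 21.7% and 21.0%. Members with Pou3f3 were thus poorer in Barx1 and 3110099E03Rik, while members with Dlx5 were richer in 3110099E03Rik. Dlx5 was found in 38.2% and 33.5% of members with Pou3f3 and 52.2% and 41.2% of those without it, and in 56.2% and 43.0% of members with Barx1 and 44.2% and 36.5% of those without it. Hmx1 was found in 22.2% and 18.0% of members with Pou3f3 and 19.2% and 20.5% of those without it, with no common direction in the replicates.

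The Emx2 cells were then set against 3 other groups of control mesenchyme without Emx2. Caudal arch cells (871 and 1062) had at least 2 UMIs of Hoxa3, Hoxb3 and Hoxd3 together. Ventral arch cells (432 and 1144) carried Gsc and Hand2 and fewer than 2 of those Hox UMIs. Proximal cells (446 and 1024) carried Hoxa2 or Hoxb2, fewer than 2 UMIs of Hoxa3, Hoxb3 and Hoxd3, and no Dlx5, Dlx6 or Gsc. Their name stands for this rule only. Their proximal markers summed to 533 and 795 CPM, against 428 and 604 CPM in the other mesenchyme and 607 and 826 CPM in the Emx2 cells. Their outflow tract markers summed to 73.9 and 87.0 CPM, against 53.3 and 68.8 CPM and 2.96 and 9.25 CPM. Genes that define a group get no test against it, and the 3 comparisons share the Emx2 cells, so they are not independent of each other. Genes that vary with the defining genes can differ by the choice of cells alone, among them the other Hox genes against all 3 groups and the other Dlx genes against proximal cells.

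Against caudal arch cells 2495 of 13639 genes (18.3%) passed, 892 higher (6.54%) and 1603 lower (11.8%), beside 279 without the library block. The Dlx genes were higher in 8 of 8, with a median log2 fold change of 2.23 beside 0.02 over all genes. 3110099E03Rik was at 106 and 107 against 4.60 and 6.43 CPM (log2 fold change 4.33, SE 0.12, adjusted p = 3.05e-10), and Smoc1 at 44.1 and 46.0 against 2.19 and 1.67 CPM (4.60). Dlx5 (2.35), Dlx6os1 (2.86), Pou3f3 (2.33, lost with DESeq2) and the Wnt receptor gene Fzd4 (2.31) were the next largest by the naming rule. Hoxa2 remained higher (0.41), while 11 of the 12 Hox genes tested were lower, among them Hoxd4 (-3.16) and Hoxb4 (-2.85). Wnt1 (-3.10), whose promoter drives the Cre, Mpped2 (-2.88) and the T-box gene Tbx3 (-2.79) were lower too. Hand2 was lower (-2.74), and Gsc did not pass (-0.18, adjusted p = 0.334) but was higher once likely doublets were left out (0.81, adjusted p = 0.0115). The calls of Pou3f3, Hoxa2 and Wnt1 were lost without the library block. BMP genes were again lower in 15 of 23. Of the 20 S phase genes 11 were higher and 0 lower (median 0.22). Of the 20 G2/M genes 0 were higher and 0 lower at an adjusted p of 0.05 in edgeR, with 5 at an unadjusted p under 0.05 beside 4028 of all 13639 genes. Neural markers were lower in 6 of 6, summing to 586 and 296 CPM in the caudal cells and 144 and 76.5 CPM in the Emx2 cells, and their part in the result was not tested.

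Against ventral arch cells 3469 of 13204 genes (26.3%) passed, 1835 higher (13.9%) and 1634 lower (12.4%), beside 320 without the library block. Here the distal Dlx genes hardly differed, with Dlx3 at 44.0 and 38.5 against 36.4 and 35.1 CPM (log2 fold change 0.18, SE 0.06, adjusted p = 0.0187), lost with DESeq2 and without the library block, and Dlx4 not passing (-0.16, adjusted p = 0.229). Dlx5 and Dlx1 were still higher (0.92 and 1.02), and the call of Dlx5 was lost without the block. The proximal genes stood furthest apart, with Pou3f3 at 86.1 and 125 against 0.991 and 2.99 CPM (log2 fold change 5.58, SE 0.09, adjusted p = 3.78e-34), Pou3f4 at 55.1 and 90.8 against 2.48 and 3.04 CPM (4.78) and Pantr1 at 206 and 211 against 9.02 and 5.78 CPM (4.92). Smoc1 (4.25), Enpp2 (2.91) and Hmx1 (1.63) were higher. Hox genes were higher in 8 of 9 tested, among them Hoxa2 (0.98), but the ventral cells were limited to fewer than 2 UMIs of Hoxa3, Hoxb3 and Hoxd3 and the Emx2 cells were not, so this count is a description. FGF genes were higher in 11 of 14 (median 1.23), led by Dusp6 (2.71). BMP genes were lower in 14 of 23 (median -0.75), with Bambi at -2.47. Barx1 was lower (-0.56, lost without the block), as were Dlk1 (-3.39), Plagl1 (-3.11), Igf2 (-2.73) and Epha3 (-2.41). Of the 20 S phase genes 5 were higher and 1 lower, and of the 20 G2/M genes 1 was higher and 1 lower. Neural markers were higher in 6 of 6, with sums of 22.2 and 26.5 CPM in the ventral cells, and their part was not tested.

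Against proximal cells 2356 of 13323 genes (17.7%) passed, 978 higher (7.34%) and 1378 lower (10.3%), beside 243 without the library block. Pou3f3 differed least here, at 86.1 and 125 against 69.2 and 70.2 CPM (0.65, lost with DESeq2 and without the block), and Pou3f4 did not pass (0.04, adjusted p = 0.692) but was higher after thinning (1.16, adjusted p = 4.39e-23). Dlx3 was at 44.0 and 38.5 against 2.48 and 2.86 CPM (log2 fold change 3.95, SE 0.13, adjusted p = 1.72e-05), and 3110099E03Rik at 106 and 107 against 2.92 and 5.27 CPM (4.67). Smoc1 (3.61), Enpp2 (2.88), Kctd12 (2.29), Dclk1 (2.07) and Foxd1 (1.88) were higher. Barx1 was higher as well (1.64, lost after thinning), and Hmx1 did not pass (0.34, adjusted p = 0.160) but was lower when cells were thinned before selection (-0.50, adjusted p = 7.25e-07) and higher with no filter on low counts (0.37, adjusted p = 3.63e-09). S phase genes were higher in 10 of 20 (median 0.18) and G2/M genes in 17 of 20 (median 0.31). Smooth muscle markers summed to 347 and 249.6 CPM in the proximal cells against 15.9 and 28.9 CPM in the Emx2 cells, and epithelial markers to 76.0 and 44.9 against 12.6 and 9.53 CPM, and their part was not tested. Acta2 (-3.95), Tagln (-3.36), Hand2 (-2.79) and Ttr (-5.33), which encodes a carrier of thyroid hormone and retinol, were lower. Ttr was at 7.98 and 0.217 CPM in the Emx2 cells and 247 and 46.9 CPM in the proximal cells, and its levels differed widely between replicates. The calls of Acta2 and Ttr were lost without the library block.

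**Figure D4:**
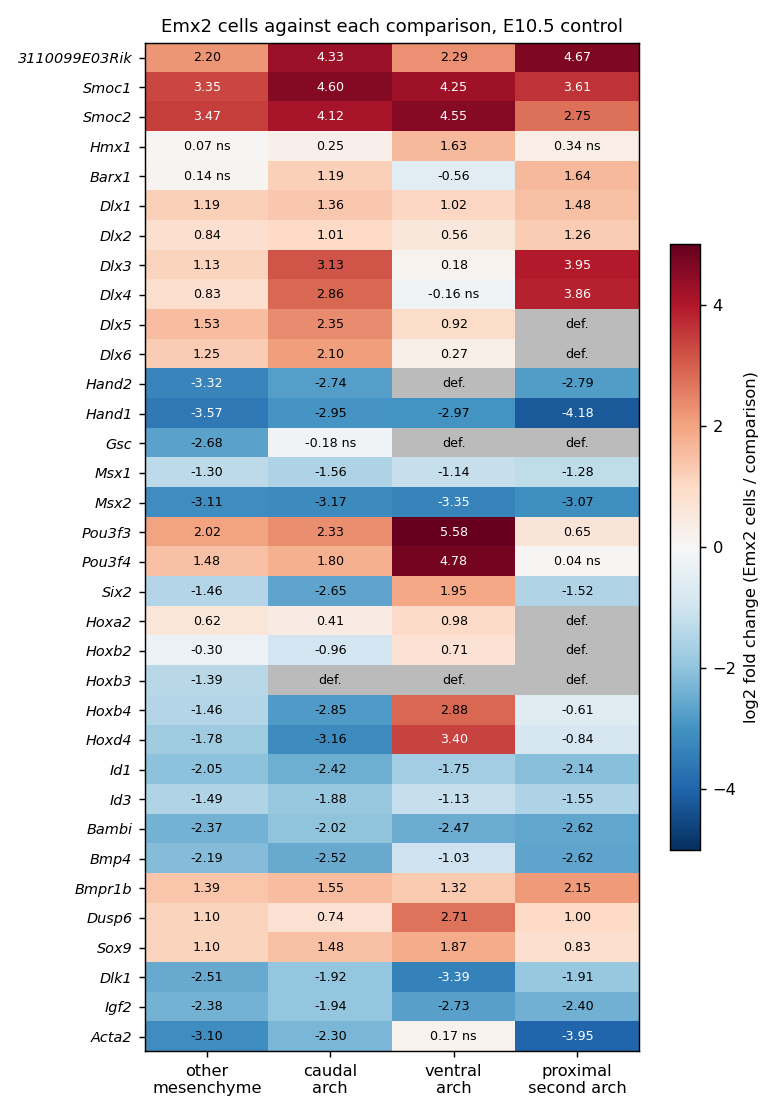
Log2 fold change of Emx2 cells over each of 4 comparison groups (columns) for selected genes (rows) in the control E10.5 libraries, with the value printed in each cell, ns for genes that did not pass and def. for genes that define the group. Smoc1 is higher against every group, while Pou3f3 ranges from 0.65 against proximal cells to 5.58 against ventral cells.

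Smoc1 and 3110099E03Rik were higher in the Emx2 cells in all 4 comparisons, and Hand2 was lower in each of the 3 in which it was tested. Dlx3 and Dlx4 were higher than in caudal cells and than in proximal cells, which were chosen without Dlx5 and Dlx6.

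In the null libraries 30 cells met the rule. With fewer than 20 members in a null library no test was made, and values are given with their counts. 3110099E03Rik had 1 and 1 UMIs in the members of null replicates 1 and 2 (1.95 and 2.28 CPM, exact Poisson 95% intervals 0.0493 to 10.9 and 0.0578 to 12.7 CPM), where the control Emx2 cells stood at 106 and 107 CPM. Smoc1 had 2 and 0 UMIs, Dlx5 11 and 0 UMIs and Dlx6 0 and 0 UMIs. Only 2 and 0 of the null members carried a UMI of Dlx5 or Dlx6 (12.5% and 0%). The intervals of 3110099E03Rik lay below the control levels in both libraries.

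Other genes were plentiful in the null members. Hoxb3 had 38 and 31 UMIs (74.1 and 70.8 CPM), against 13.3 and 13.2 CPM in the control Emx2 cells, and 7 (43.8%) and 12 (85.7%) of the null members had at least 2 UMIs of Hoxa3, Hoxb3 and Hoxd3. Six2 had 29 and 41 UMIs (56.5 and 93.6 CPM) against 2.66 and 3.58 CPM in the controls, and was found without thinning in 50.0% and 78.6% of null members and 5.84% and 5.18% of control members. Hoxa2 stood at 95.5 and 73.0 CPM, near the 108 and 104 CPM of the controls. The null members also differed from each other, with Hmx1 at 74.1 and 662 CPM, Barx1 at 127 and 6.85 CPM and Tagln at 0 and 301 CPM. In both null libraries the members thus held less Dlx5 and more Hoxb3 and Six2 than the control cells chosen by the same rule. In the other null mesenchyme Dlx5 stood at 25.1 and 2.80 CPM and Hoxb3 at 68.6 and 97.7 CPM. Cells with at least 2 UMIs of those Hox genes, Emx2 cells included, were 55.3% and 70.1% of null mesenchyme without Sox10 and Foxf1. In the controls they were 31.3% and 19.3%. Six2 was at 16.6 and 26.2 CPM in the other null mesenchyme, below the null members.

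In the mesenchyme with 0 UMIs of Emx2, 1 of 15611 genes (0.00641%) passed between null and control at an adjusted p of 0.05. That gene was 3110099E03Rik. Cells that carried Emx2 RNA but yielded no UMI of it remain in these sums, and their part was not tested. At an unadjusted p under 0.05 there were 1910 genes, and DESeq2 called 253. Data of this size, simulated from the model that edgeR fits, gave 0 calls among 100 genes changed 2-fold. The single call thus sets no limit on changes of that size, and the simulation speaks for this edgeR fit alone. 3110099E03Rik was at 20.5 and 27.2 CPM in the controls and 0.270 and 0.382 CPM in the null libraries (log2 fold change -6.38, SE 0.34, adjusted p = 0.00965), and it passed with each library left out in turn. Without 1 library the count ran from 5 without control replicate 2 to 133 without null replicate 1, with 45 without control replicate 1 and 61 without null replicate 2.

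Dlx5, Gsc and Smoc1 did not pass there. Dlx5 was at 50.2 and 41.8 CPM in the controls and 25.1 and 2.80 CPM in the null libraries (log2 fold change -1.81, SE 0.87, adjusted p = 0.444). Gsc was at 67.9 and 81.7 CPM in the controls against 6.82 and 10.5 CPM (-3.30, adjusted p = 0.0685), and Smoc1 at 4.22 and 4.85 against 1.23 and 2.60 CPM (-1.45, adjusted p = 0.386). Gsc passed with DESeq2, after thinning, with the replicate number as a block and with any library but control replicate 2 left out. Dlx5 passed without null replicate 1 (-4.25, adjusted p = 0.00153), Smoc1 after thinning, and all 3 with no filter on low counts. For all 3 genes the null values lay below the control values, as they did for 14.6% of all genes tested, while 33.2% had both null values above both control values. The Dlx genes had a median log2 fold change of -2.62, with 5 of 8 at an unadjusted p under 0.05. The Hox genes had a median of 1.00, with 8 of 15 at that limit, beside 1910 of all 15611 genes. Fewer Dlx-positive cells and less Dlx RNA per cell cannot be told apart in these sums. Neural markers summed to 359 and 1231 CPM in the other null mesenchyme against 293 and 102 CPM in the controls, and their part was not tested.

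**Figure D5:**
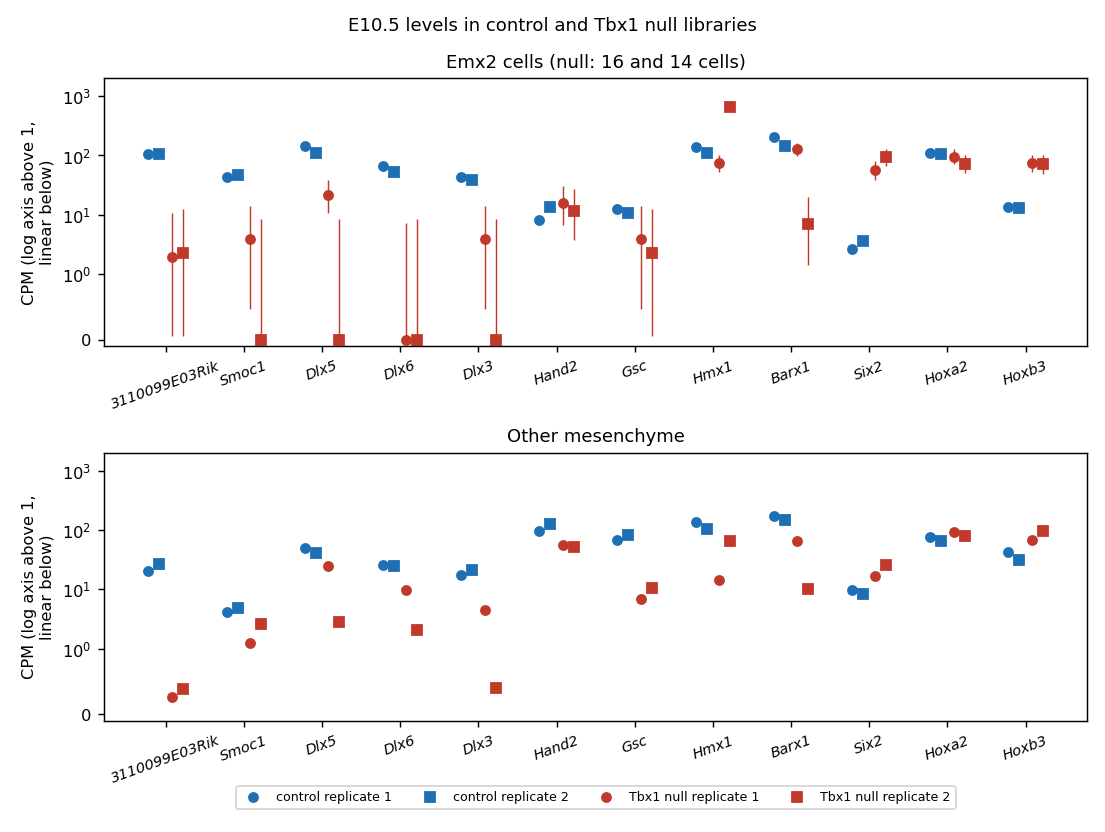
Level (vertical axis, CPM, log scale above 1 and linear below) of selected genes in Emx2 cells and other mesenchyme of each control and null E10.5 library, with a point for each library. 3110099E03Rik stands at 20.5 and 27.2 CPM in the other mesenchyme of the controls and 0.270 and 0.382 CPM in that of the null libraries.

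Before E10.5 the rule found few cells. At E8.5 it found 11 of 3000 mesenchymal cells (0.367%, 0.183% to 0.655%). Only 561 of the 3000 lacked Sox10 and Foxf1, and the 11 cells were 1.96% of those. Sox10 or Foxf1 left out 14 further Emx2-positive mesenchymal cells. In that library 5.86% of neural cells had an Emx2 UMI, a share counted without the limit on Sox10 and Foxf1. At E9.5 the rule found 4 of 5960 in the control (0.0671%) and 3 of 8063 in the null library (0.0372%). With 1 library for each group there was no test. 3110099E03Rik had 0 UMIs in the chosen cells of all 3 libraries. Smoc1 had 6 UMIs in the 11 cells at E8.5 (21.2 against 1.12 CPM in the other mesenchyme), where the neural gene Sox2 was at 81.1 against 42.1 CPM and its part was not tested, and 3 in the 4 control cells at E9.5 (26.5 against 1.07 CPM), but 0 in the 3 null cells at E9.5 (0.881 CPM in the other mesenchyme). Dlx5 was at 17.6 against 13.5 CPM at E8.5, at 70.6 against 72.9 CPM in the E9.5 control and at 144 against 83.1 CPM in the E9.5 null library. The control Emx2 cells of E10.5 thus had no counterpart of similar size in the earlier libraries, whose dissections differ. The E8.5 library was also made with kit version 2.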

How the data were processed

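Single cells of 7 libraries (E8.5, E9.5 and E10.5) were sequenced by droplet methods. The authors aligned reads to mm10 with Cell Ranger 6.0.1, as the submitters' processing notes list, and deposited raw UMI counts of 32285 genes per cell, without normalization. Use of strand in counting is not given in the sources used here. A kept cell had 1000 or more detected genes and no more than 10% of its UMIs from mitochondrial genes, and doublets were scored with Scrublet (scanpy 1.11.5) but not removed from the main values. Counts were summed per library and cell group, and genes were tested with edgeR 4.0.16 (R 4.3.3; TMM, filterByExpr, quasi-likelihood test) with the library as a block, at a Benjamini-Hochberg adjusted p under 0.05. The block pairs Emx2 cells with other cells of the same library. The SE printed with a log2 fold change is its absolute value divided by the square root of the test's F statistic, not an SE that edgeR fitted. Summed UMIs of the Emx2 cells were 20290675 and 36845219 in the controls and 513146 and 438148 in the null libraries.

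On simulated data over 14797 genes, the comparison of Emx2 cells with other mesenchyme recovered 79% of genes changed 1.5-fold and 93% of those changed 2-fold. It called 0.0891% of unchanged genes. Changed genes were drawn only from those with at least 200 UMIs in total, and counts from the model that the test fits. These shares therefore cannot show how well that model holds for the real counts. Alternatives were DESeq2 1.42.0, median-ratio size factors, no filter, no block or a replicate block, thinning to 5000 UMIs before selection, at least 2 Emx2 UMIs, another comparison group (all mesenchymal cells), no likely doublets, 200 genes and 5% mitochondrial UMIs, the study's own limits (a log2 difference above 0.25 and detection in 10% of cells), and leaving out each library. Named were the markers, genes of the counted lists, and the 12 highest and 12 lowest called genes with the same direction in both libraries and at least 50 CPM in a group (5 and 5 for the other comparisons). Mesenchymal genes of the rule, Sox10, Foxf1, Emx2 and Emx2os, which overlaps Emx2, were not tested. Emx2os stood at 10.9 and 13.8 CPM in the control Emx2 cells and 0.697 and 0.879 CPM in the other mesenchyme. Members, markers and lists were chosen with earlier results of these data known. Positions are from GENCODE vM21 and promoters from RefSeq on GRCm38.p6.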

Additional observations from a re-analysis of the deposited data

How the results depend on the processing

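Counts of called genes moved with the tool, the block and thinning, and the cause was not tested. Emx2 cells against other mesenchyme gave 2848 genes, 1062 with DESeq2, 122 with no replicate block, 927 after thinning and 1171 with the study's own limits. Against caudal cells the count of 2495 became 1006 with DESeq2, 279 with no replicate block and 959 after thinning. Against ventral cells 3469 became 918, 320 and 1005, and against proximal cells 2356 became 974, 243 and 814, with 3970 under no filter. Null against control in the other mesenchyme gave 1 gene, 253 with DESeq2, 1051 with no filter, 11 after thinning, and 5 to 133 with a library left out. With the replicate number as a block it gave 37, but same-numbered libraries do not deviate together (r = 0.0016 across 15615 genes), so they share only a number.

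Of the tested results for single genes, 1222 kept direction and call, 127 lost the call (85 with no replicate block), 23 gained it and 9 reversed. With 1 control library left out the paired comparisons gave values with no test, of which 323 kept their direction and 3 reversed. Against other mesenchyme Hmx1 was -0.15 after thinning and -0.22 with at least 2 Emx2 UMIs, but 0.39 against all other mesenchymal cells and 0.16 without likely doublets, both called higher. Barx1 was -0.52 after thinning and -0.24 with at least 2 UMIs, and with a control library left out from -0.029 (without replicate 1) to 0.23 (without replicate 2). Hmx1 was -0.17 after thinning against caudal cells, and against proximal cells -0.50 after thinning and from -0.029 to 0.64 without replicate 1 and without replicate 2. Also reversed were Gsc against caudal cells (0.20 after thinning and 0.81 without likely doublets), Dlx4 against ventral cells (0.11 after thinning) and Pou3f4 against proximal cells (from -0.13 to 0.088 with a control library left out).

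The mean control share of Emx2 cells, 21.3%, was 14.9% with at least 2 Emx2 UMIs, 10.2% after thinning, 13.6% of all kept cells and 43.3% of Dlx5- or Dlx6-positive cells. The null mean of 0.4998% became 0.155%, 0.126%, 0.192% and 0.289%. Without thinning and at 3000 UMIs, mean shares of control Emx2 cells with a UMI were 73.4% and 29.0% for Dlx5 (main value 43.1%), 80.2% and 26.2% for Hoxa2 (38.5%), 13.5% and 2.92% for Hoxb3 (4.95%), 54.0% and 13.4% for Smoc1 (19.9%), and 32.6% and 16.4% for Hmx1 (19.8%). Hand2 was at 6.88% without thinning (2.85%). After thinning 0% remained at E8.5 and in the E9.5 null library, and the log2 ratio of Dlx5 at E8.5 moved from 0.52 to 1.35 with a pseudocount of 5 UMIs. The pseudocount was added to raw counts, which were 5 Dlx5 UMIs in the chosen cells and 180 in the other mesenchyme. The rise therefore comes from that addition and says nothing on Dlx5. A test of null Emx2 cells was not run, since each null library held fewer than 20, and the counts with 1 control library left out were not run for the paired comparisons, which then have no residual degrees of freedom. With 2 libraries per group, the depth and number of null members limit any statement on them.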
